A study of Mus musculus with 6 samples.

Results

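The exon junction complex (EJC) and its peripheral partners were described by 9 genes chosen by name from what is known of the complex. No measured value entered the rule, but earlier results of these data were known when the genes were chosen. *Eif4a3*, *Magoh*, *Magohb*, *Rbm8a* and *Casc3* encode the core, and *Rnps1*, *Acin1*, *Pnn* and *Sap18* encode the ASAP and PSAP complexes that bind it. These were 9 of the 54532 genes listed, and all 9 passed the minimum level set for testing, a mean over the libraries of 0.5 FPKM, which is fragments scaled to exon length and sequencing depth. RNA-seq was performed on whole mouse ovaries at 16.5 dpc, in 3 Ctrl libraries labelled wild type and 3 libraries labelled conditional knockout (cKO) for *Srsf1*. The labels gave C57BL/6 as the strain of both groups. The study bought C57BL/6N and ICR mice, obtained the floxed and Cre lines from other laboratories, and stated no strain for those lines. In the study's methods, cKO females carried the *Stra8-GFPCre* transgene and a floxed *Srsf1* allele on both chromosomes, so that by design germ cells entering meiosis lose the gene and somatic cells keep it. The labels did not say whether each library was a separate animal, and p-values measure the spread between these libraries only. In whole ovary RNA, fewer cells of a type and less RNA per cell cannot be told apart.

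The EJC is placed on spliced mRNA a short distance upstream of exon junctions and travels with the mRNA to the cytoplasm. EIF4A3 is a DEAD-box ATPase that clamps the RNA, the heterodimer of RBM8A (Y14) with MAGOH or MAGOHB locks that clamp, and CASC3 (MLN51) joins it as the fourth core protein. ASAP contains RNPS1, SAP18 and ACIN1, and PSAP contains PNN in place of ACIN1. SR proteins such as SRSF1 are packaged with the EJC on mRNA, and the complex serves in splicing, mRNA export, localization, translation and nonsense-mediated decay (NMD).

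*Srsf1*, the deleted gene, was at 80.2, 70.1 and 63.1 FPKM in the Ctrl libraries and at 32.4, 37.0 and 36.4 FPKM in the cKO libraries. Every cKO library lay below every Ctrl library, and *Srsf1* fell by 0.99 on the log2(FPKM + 1) scale (SE 0.13, unadjusted limma p = 0.000158, adjusted p = 0.497, exact permutation p = 0.1). The libraries held 14212164 to 16784241 reads assigned to genes. Markers of germ cells and of pregranulosa cells were above 0 in all 6 libraries, as for the labelled tissue, ovary; the extraction text in the labels names retinas. The summed level of 10 germ-cell markers ranged from 157 to 565 FPKM in Ctrl and from 285 to 786 FPKM in cKO. 2 of those 10 passed the limit of an unadjusted p below 0.05 with cKO higher, as did 2.68% of all genes tested. They were *Dazl* (log2 fold change 1.60, unadjusted limma p = 0.0345, adjusted p = 0.978, exact permutation p = 0.2), whose groups overlapped, and *Dppa3* (1.34, p = 0.0312, 0.978 and 0.1). *Ddx4* had a log2 fold change of 0.49 (unadjusted limma p = 0.403, exact permutation p = 0.5). The sums of 9 pregranulosa, 6 stromal, 5 endothelial and 4 mesonephric markers overlapped between the groups, as did those of 5 immune and 8 red blood cell markers. The red blood cell sum varied most, from 4860 to 22984 FPKM in Ctrl and from 1716 to 10420 FPKM in cKO, and 1 of its 8 genes, the embryonic globin *Hbb-y*, was higher in cKO without overlap (2.10, unadjusted limma p = 0.00589, exact permutation p = 0.1).

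Several members have near-copies in the genome, which bears on what a read count for them means, so the coding sequences were compared on GRCm38 with GENCODE M21 transcripts. *Magoh* and *Magohb* matched at 357 of 441 aligned coding bases (81.0%), with no identical run longer than 17 bases. No 100-base window of *Magoh* occurred in another listed gene. The 150 bases with the most mismatches are given for both genes, with the 32 differing bases in capitals. The *Magoh* stretch lies at chr4:107879888-107883100 on the plus strand and the *Magohb* stretch at chr6:131288114-131293129 on the minus strand, each in exons 1 to 3 with introns left out.
Magoh: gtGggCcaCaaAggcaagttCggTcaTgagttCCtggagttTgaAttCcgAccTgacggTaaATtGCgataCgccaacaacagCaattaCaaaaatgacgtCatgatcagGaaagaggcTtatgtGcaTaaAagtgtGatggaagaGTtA
Magohb: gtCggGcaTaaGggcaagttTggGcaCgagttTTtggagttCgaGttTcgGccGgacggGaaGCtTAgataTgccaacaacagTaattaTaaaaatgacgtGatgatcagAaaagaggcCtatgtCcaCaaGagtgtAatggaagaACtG
*Sap18* has a copy without introns, *Sap18b*, whose coding sequence was the same at 519 of 519 bases. Of the 100-base windows in *Sap18* transcripts, 12.1% also occurred in *Sap18b*, and 98.7% of the *Sap18b* windows were shared. The retrocopy *Rbm8a2* matched *Rbm8a* at 513 of 525 coding bases (97.7%), but it held only 1 to 5 reads per library and was not tested. The values of *Sap18* and *Sap18b* are therefore uncertain as a split between copies, and the other members shared 0% (*Magoh* and *Pnn*) to 24.1% (*Magohb*) of their windows with another listed gene, overlapping genes included.

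None of the 9 members passed the limit of an unadjusted p below 0.05 in either direction. Over all 17180 genes tested, 4.43% passed it (2.68% higher and 1.75% lower in cKO). No gene of the whole table passed after Benjamini-Hochberg adjustment in limma, 761 genes did so unadjusted, and the smallest adjusted p was 0.392. The members' log2 fold changes ran from -0.26 (*Pnn*) to 0.08 (*Casc3*), with a median of -0.09 beside -0.01 over all genes tested. Their median absolute log2 fold change was 0.09, beside 0.13 over all genes tested. 7 of the 9 lay below 0 and 2 above it, beside 8958 of the 17180 genes tested below 0. *Magoh*, counted among the 7, was at -0.00246, and each member's 95% interval held 0. The Ctrl and cKO values did not overlap in 2 of the 9, *Magohb* and *Pnn*, both with cKO lower, where 8.68% of all genes tested did not overlap (4.59% higher and 4.10% lower). An exact permutation test of 3 against 3 libraries cannot go below p = 0.1.

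**Figure D1:**
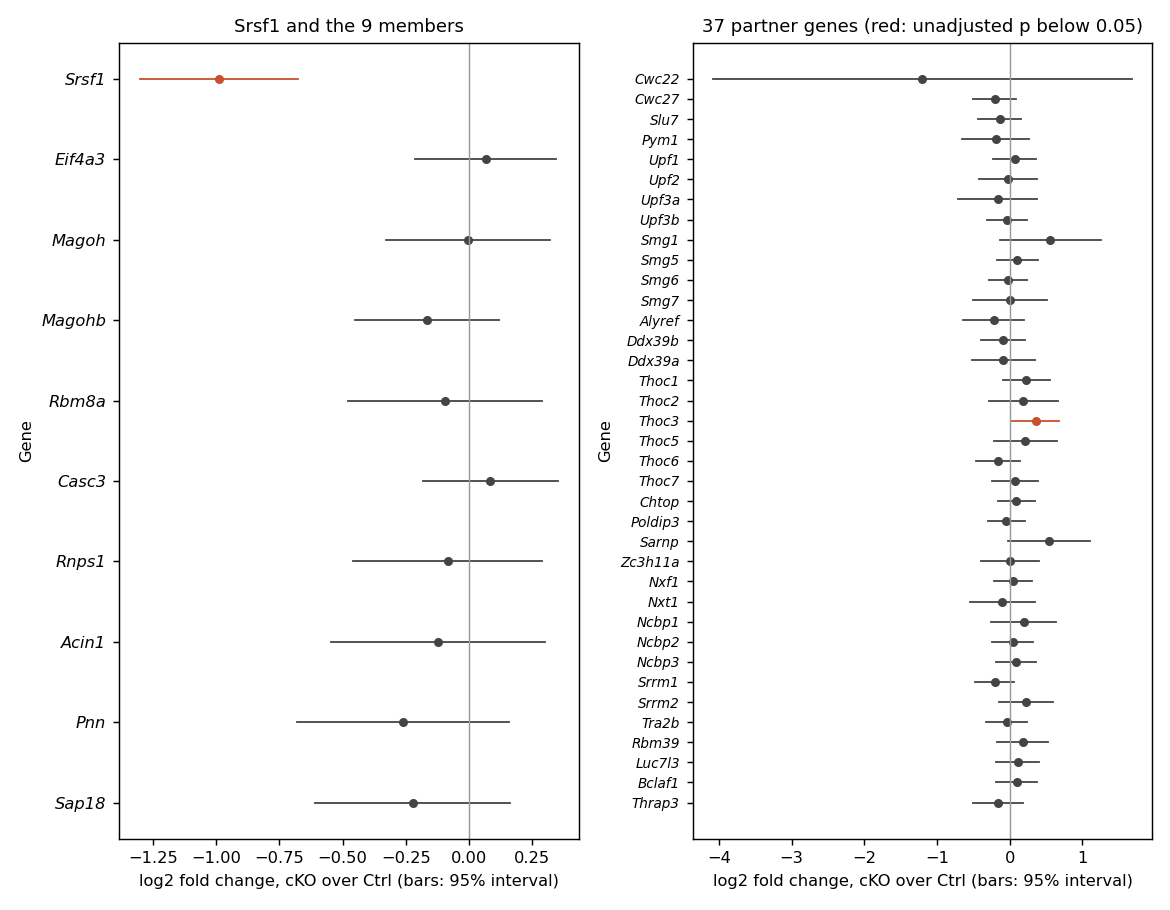
Log2 fold changes (cKO minus Ctrl, log2(FPKM + 1)) from limma with 95% intervals, for *Srsf1* and the 9 members on the left and the 37 partner genes on the right, red where the unadjusted p is below 0.05. Each member interval crosses 0, *Srsf1* lies at -0.99, and *Thoc3* is the red partner at 0.36.

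Among the core genes, *Eif4a3* (ENSMUSG00000025580, chr11:119288363-119300089, minus strand), the RNA clamp, was at 42.1, 41.0 and 43.6 FPKM in Ctrl and at 40.3, 43.7 and 49.2 FPKM in cKO. The groups overlapped, with the lowest library cKO 1 and the highest cKO 3. The means were 42.2 ± 1.31 FPKM in Ctrl and 44.4 ± 4.47 FPKM in cKO (SD, n = 3 each). Its log2 fold change was 0.07 (SE 0.12, 95% interval -0.21 to 0.35, unadjusted limma p = 0.595, adjusted p = 0.986, exact permutation p = 0.6). Its translation-initiation paralogs were far more abundant: *Eif4a1* was at 125, 119 and 114 FPKM in Ctrl and at 123, 125 and 95.5 FPKM in cKO. *Eif4a2* was at 135, 140 and 145 FPKM in Ctrl and at 131, 126 and 127 FPKM in cKO. *Eif4a1* overlapped between the groups (log2 fold change -0.07, unadjusted limma p = 0.665, exact permutation p = 0.9). *Eif4a2* did not overlap, with all cKO values below all Ctrl values, but it did not pass the test (-0.13, unadjusted limma p = 0.277, exact permutation p = 0.1).

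*Magoh* (ENSMUSG00000028609, chr4:107879755-107887424, plus strand) was at 63.1, 51.5 and 52.5 FPKM in Ctrl and at 52.2, 52.3 and 62.1 FPKM in cKO. Ctrl 1 and cKO 3 stood above the other 4, and the group means were 55.7 ± 6.45 and 55.6 ± 5.67 FPKM (SD, n = 3 each). The log2 fold change was -0.00 (SE 0.14, 95% interval -0.33 to 0.32, unadjusted limma p = 0.986, exact permutation p = 0.8). *Magohb* (ENSMUSG00000030188, chr6:131284388-131293244, minus strand), the paralog that can take the place of MAGOH, was at 6.36, 5.93 and 6.09 FPKM in Ctrl and at 5.38, 5.89 and 4.83 FPKM in cKO. The groups did not overlap, although cKO 2 at 5.89 FPKM lay close to Ctrl 2 at 5.93 FPKM. The log2 fold change was -0.17 (SE 0.12, 95% interval -0.45 to 0.12, unadjusted limma p = 0.212, adjusted p = 0.978, exact permutation p = 0.1), from 118 to 183 reads per library. *Magohb* thus rested on the fewest reads of the members. The *Magohb* gene overlaps the processed pseudogene *Gm44958* on the same strand over 736 bases, so reads there are uncertain as to gene.

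*Rbm8a* (ENSMUSG00000038374, chr3:96629933-96633791, plus strand), the partner of both MAGOH proteins, was at 20.2, 22.2 and 22.3 FPKM in Ctrl and at 20.9, 24.2 and 16.1 FPKM in cKO. The highest and the lowest library were both cKO (cKO 2 and cKO 3), and the log2 fold change was -0.09 (SE 0.16, 95% interval -0.48 to 0.29, unadjusted limma p = 0.581, exact permutation p = 0.8). *Casc3* (ENSMUSG00000078676, chr11:98804905-98833814, plus strand) was at 22.1, 22.2 and 20.4 FPKM in Ctrl and at 20.9, 24.0 and 23.9 FPKM in cKO. The groups overlapped, with Ctrl 3 the lowest, and the log2 fold change was 0.08 (SE 0.11, 95% interval -0.18 to 0.35, unadjusted limma p = 0.479, exact permutation p = 0.3). The *Casc3* gene overlaps *Msl1* on the same strand over 2955 bases, so reads there are uncertain as to gene.

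**Figure D2:**
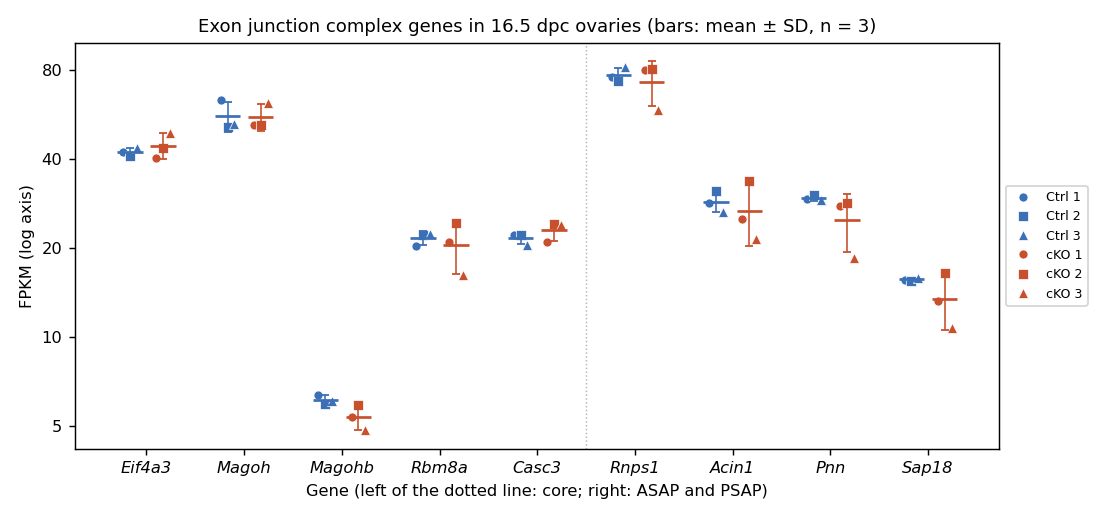
FPKM of each member in every library, points for the 3 Ctrl and 3 cKO libraries and bars for the group mean with SD. *Magohb* and *Pnn* are the 2 members whose groups do not overlap, with cKO lower; *Rnps1* has the highest mean and *Magohb* the lowest.

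The 4 ASAP and PSAP genes had fold changes below 0, with a median of -0.17, and none passed the test. *Rnps1* (ENSMUSG00000034681, chr17:24414675-24425895, plus strand), shared by both complexes and an activator of splicing and NMD, was at 75.6, 73.3 and 81.7 FPKM in Ctrl. In cKO it was at 79.9, 80.9 and 58.5 FPKM. Both cKO 1 and cKO 2 lay within the Ctrl range and cKO 3 lay below it, with a log2 fold change of -0.08 (SE 0.16, 95% interval -0.46 to 0.29, unadjusted limma p = 0.606, exact permutation p = 0.8). *Acin1* (ENSMUSG00000022185, chr14:54642161-54686931, minus strand), the scaffold of ASAP, was at 28.4, 31.1 and 26.5 FPKM in Ctrl and at 25.0, 33.6 and 21.4 FPKM in cKO. The highest and lowest libraries were both cKO (cKO 2 and cKO 3), and the log2 fold change was -0.12 (SE 0.18, 95% interval -0.55 to 0.30, unadjusted limma p = 0.517, exact permutation p = 0.6). *Acin1* overlaps 2 expressed genes of the opposite strand, *1700123O20Rik* and *4930579G18Rik*, and the strand setting of the counting was not given in the sources used here.

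*Pnn* (ENSMUSG00000020994, chr12:59066884-59073998, plus strand), which takes the place of ACIN1 in PSAP, was at 29.4, 30.2 and 29.0 FPKM in Ctrl and at 27.7, 28.5 and 18.6 FPKM in cKO. The groups did not overlap: cKO 1 and cKO 2 lay just below the lowest Ctrl value and cKO 3 far below. The log2 fold change was -0.26 (SE 0.18, 95% interval -0.68 to 0.16, unadjusted limma p = 0.186, adjusted p = 0.978, exact permutation p = 0.1). *Sap18* (ENSMUSG00000021963, chr14:57798180-57806638, plus strand), a histone deacetylase-associated protein of both complexes, was at 15.6, 15.5 and 15.8 FPKM in Ctrl and at 13.2, 16.5 and 10.7 FPKM in cKO. The Ctrl values lay close together, whereas cKO 2 was above all of them and cKO 1 and cKO 3 below. Its log2 fold change was -0.22 (SE 0.16, 95% interval -0.61 to 0.16, unadjusted limma p = 0.211, exact permutation p = 0.4). Without cKO 2, *Sap18* passed the limit at -0.37, as 6.03% of all genes tested did in that direction in that fit. The copy *Sap18b* was at 29.6, 27.9 and 29.9 FPKM in Ctrl and at 27.6, 26.5 and 19.6 FPKM in cKO. Its groups did not overlap, with a log2 fold change of -0.25 (SE 0.15, unadjusted limma p = 0.146, exact permutation p = 0.1), and its reads cannot be told apart from those of *Sap18* over most of its length.

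The library cKO 3 stood apart in many of these genes. It was the lowest of the 6 libraries in 6 of the 9 members, namely *Rnps1*, *Acin1*, *Pnn*, *Sap18*, *Rbm8a* and *Magohb*, and the highest in 1, *Eif4a3*. This grouping was noticed after the values were seen. Over all genes tested, cKO 3 was the lowest in 22.8% and the highest in 17.8%. Among the 9366 genes with a mean of at least 5 FPKM, as all members have, these shares were 26.0% and 19.2%. Set against the mean of the other 5 libraries on the log2(FPKM + 1) scale, cKO 3 stood at -0.61 for *Pnn*, -0.48 for *Sap18*, -0.41 for *Rnps1* and *Acin1*, and -0.42 for *Rbm8a*. The corresponding differences were -0.25 for *Magohb*, 0.12 for *Casc3*, 0.19 for *Magoh* and 0.22 for *Eif4a3*. Its level was 64.1% of the mean of the other libraries for *Pnn* and 117% for *Eif4a3*, both in FPKM. cKO 3 also had the fewest reads assigned to genes (14212164) and the highest germ-cell marker sum (786 FPKM). cKO 1, with a germ-cell marker sum of 708 FPKM, lay below every Ctrl library for *Sap18* (13.2 FPKM), *Acin1* (25.0), *Magohb* (5.38) and *Pnn* (27.7), and within the Ctrl range for *Rnps1* (79.9) and *Rbm8a* (20.9). Ctrl 3, with a sum of 565 FPKM, was the highest Ctrl library for *Sap18* (15.8 FPKM), *Rnps1* (81.7) and *Rbm8a* (22.3). It was the lowest Ctrl library for *Acin1* (26.5) and *Pnn* (29.0), and between the others for *Magohb* (6.09). With the germ-cell list as a covariate, log2 fold changes were -0.14 for *Pnn*, -0.10 for *Sap18* and *Magohb*, -0.03 for *Rnps1*, -0.01 for *Rbm8a* and 0.05 for *Acin1*. They were 0.13 for *Casc3*, 0.03 for *Eif4a3* and 0.02 for *Magoh*, and no member passed the limit in that fit. The germ-cell marker sum was itself highest in cKO 3 and cKO 1, so this covariate and genotype cannot be fully told apart. The parts of germ-cell content and of depth were not tested. Without cKO 3 the log2 fold changes of the members ran from -0.10 (*Magohb*) to 0.07 (*Rnps1*). *Rnps1*, *Rbm8a* and *Acin1* then lay above 0, and *Eif4a3* lay at -0.01.

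**Figure D3:**
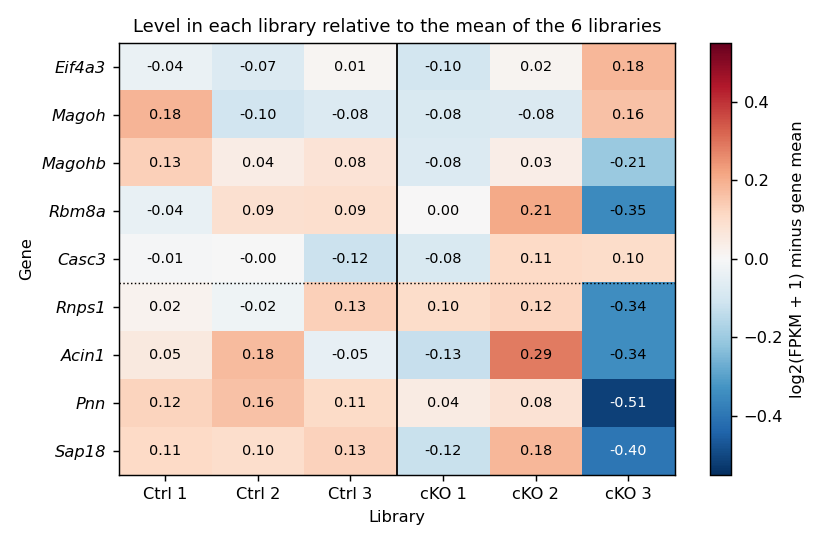
Deviation of each member from its mean over the 6 libraries, in log2(FPKM + 1), with genes in rows and libraries in columns. cKO 3 is lowest for the 4 ASAP and PSAP genes, *Rbm8a* and *Magohb*, and reaches -0.51 for *Pnn*.

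By root mean square difference of these centred values, the 2 most alike of the 36 pairs of members were *Rbm8a* and *Rnps1* (0.0767), followed by *Eif4a3* and *Casc3* (0.0790). *Magoh* and *Pnn* were the least alike (0.317). All of these values share the same 6 libraries and their scaling. Over the 6 libraries the SD on the log2(FPKM + 1) scale was 0.09 for *Casc3* and 0.10 for *Eif4a3*, and these lay at the 7.73 and 9.80 percentiles of the 9366 genes with a mean of at least 5 FPKM. The largest was 0.25 for *Pnn*, at the 66.2 percentile.

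In level per length (mean FPKM over 6 libraries), the order was *Rnps1* (75.0), *Magoh* (55.6), *Eif4a3* (43.3), *Acin1* (27.7), *Pnn* (27.2), *Casc3* (22.3), *Rbm8a* (21.0), *Sap18* (14.6) and *Magohb* (5.75). The ranges of neighbours did not overlap between *Magoh* and *Eif4a3*, *Eif4a3* and *Acin1*, or *Sap18* and *Magohb*. They overlapped in the other 5 steps, and *Acin1* and *Pnn* traded places between libraries, with *Acin1* above in 3 of 6. FPKM divides by the summed exon length. This was set against the length of the transcript with the longest coding sequence. It was 2.24 times that length for *Magohb*, 2.22 times for *Acin1* and 1.11 times for *Magoh*, so the order depends on the length taken for each gene.

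Ratios within a library do not depend on how libraries were scaled. Like the order of levels, their size depends on the length taken for each gene. *Magohb* over *Magoh* was 0.101, 0.115 and 0.116 in Ctrl and 0.103, 0.113 and 0.0778 in cKO, so *Magohb* made up 7.22% to 10.4% of their summed FPKM. *Magoh* had the higher FPKM in every library, and the ratio of cKO 3 lay below the rest. This share is also uncertain because *Magohb* overlaps *Gm44958*. *Rbm8a* over the sum of *Magoh* and *Magohb* was 0.291, 0.387 and 0.381 in Ctrl and 0.362, 0.416 and 0.241 in cKO, below 1 throughout. *Eif4a3* over that sum was 0.606, 0.714 and 0.745 in Ctrl and 0.699, 0.751 and 0.734 in cKO. These ratios overlapped between the groups, as did *Pnn* over *Acin1*, which was 1.03, 0.971 and 1.10 in Ctrl and 1.11, 0.847 and 0.868 in cKO. In that order, log2 differences were -0.19, -0.08, 0.09 and -0.14, with exact permutation p of 0.3, 0.8, 0.6 and 0.4, and 0.8 for each after adjustment over the 4 ratios.

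**Figure D4:**
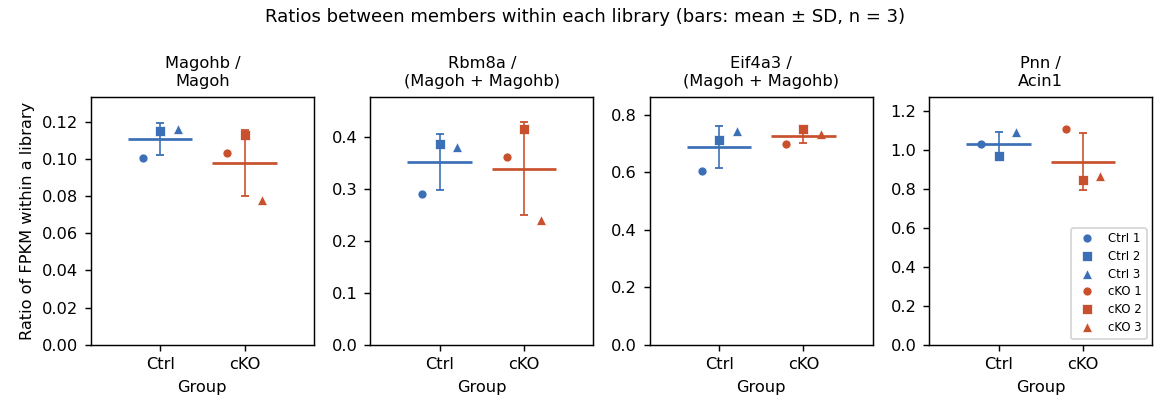
Ratios of FPKM between members within each library (4 panels), points for libraries and bars for the group mean with SD (n = 3). Ctrl and cKO overlap in all 4 ratios, and cKO 3 is the lowest for *Magohb* over *Magoh* and for *Rbm8a* over *Magoh* plus *Magohb*.

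Genes that load, remove or act with the EJC were taken from a list of 37, all of them tested. 1 was higher in cKO and none was lower by limma at an unadjusted p below 0.05, beside 2.68% and 1.75% of all genes tested, with a median log2 fold change of 0.01. 4 had groups that did not overlap, beside 8.68% of all genes tested, *Thoc3* and *Ncbp3* with cKO higher, and *Cwc27* and *Srrm1* with cKO lower. *Thoc3*, a subunit of the THO complex that couples transcription to mRNA export, was at 22.7, 22.5 and 24.9 FPKM in Ctrl and at 29.0, 26.9 and 35.4 FPKM in cKO. All cKO values lay above all Ctrl values, and it rose by 0.36 on the log2 scale (SE 0.14, unadjusted limma p = 0.0332, adjusted p = 0.978, exact permutation p = 0.1). It missed the limit under quantile normalization, with voom, with the germ-cell list as a covariate (0.24) and without Ctrl 1, Ctrl 2, cKO 1 or cKO 3 (0.25 without cKO 3). Among the 18 genes of export, the median was 0.06, the largest fold change was that of *Sarnp* (0.54, unadjusted limma p = 0.0587, exact permutation p = 0.2) and the smallest that of *Alyref*, an mRNA export adaptor (-0.22, unadjusted limma p = 0.26, exact permutation p = 0.5). *Sarnp* was at 37.1, 28.9 and 19.6 FPKM in Ctrl and at 42.8, 34.7 and 44.8 FPKM in cKO, and it overlaps *Dnajc14* on the same strand. It passed the limit with voom (0.53), with the germ-cell covariate (0.70) and without Ctrl 1 (0.74), and stood at 0.30 without Ctrl 3.

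The 12 genes of loading, removal and NMD had a median of -0.03. *Smg1*, the kinase of UPF1 in NMD, had the largest fold change (0.56, SE 0.29, unadjusted limma p = 0.0954, exact permutation p = 0.3), with 9.28, 12.3 and 13.2 FPKM in Ctrl and 25.3, 11.1 and 18.6 FPKM in cKO. Without cKO 2 it passed the limit at 0.86, as 8.48% of all genes tested did in that direction, and it stood at 0.30 without cKO 1 and at 0.23 with the germ-cell covariate, short of the limit. The 7 SR-related and nuclear matrix genes had a median of 0.10, with the SR-related proteins *Srrm2* (0.22, unadjusted limma p = 0.191, exact permutation p = 0.3) and *Srrm1* (-0.20, p = 0.111 and 0.1 by the same tests) at the ends. Both encode splicing coactivators. *Srrm1* was at 39.5, 41.7 and 37.9 FPKM in Ctrl and at 37.0, 31.9 and 34.2 FPKM in cKO, with all cKO values below all Ctrl values.

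*Cwc22*, the spliceosome protein that brings EIF4A3 to the spliceosome, did not follow the groups. It was at 7.20, 87.6 and 93.9 FPKM in Ctrl and at 8.32, 6.86 and 76.7 FPKM in cKO, so Ctrl 1, cKO 1 and cKO 2 lay far below the other 3 libraries. The log2 fold change was -1.20 (SE 1.21, unadjusted limma p = 0.355, exact permutation p = 0.3). Its SD over the 6 libraries was 1.85 on the log2 scale, above 99.9% of the genes with a mean of at least 5 FPKM. *Gm13727*, a noncoding gene that overlaps it by 309 bases on the same strand, had 0, 30 and 30 reads in Ctrl and 0, 0 and 37 reads in cKO. A count of 0 allows up to 3 reads, and the same 3 libraries were low for both genes. *Eif4a3* was at 42.1, 40.3 and 43.7 FPKM in those libraries and at 41.0, 43.6 and 49.2 FPKM in the others, with no such split. The fit with the germ-cell list as a covariate gave *Cwc22* a log2 fold change of -2.81. This passed the limit, as 3.45% of all genes tested did in that direction in that fit. The copy number of this locus is known to vary among mouse strains; the strain was taken from the labels, and what separates the libraries was not tested.

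**Figure D5:**
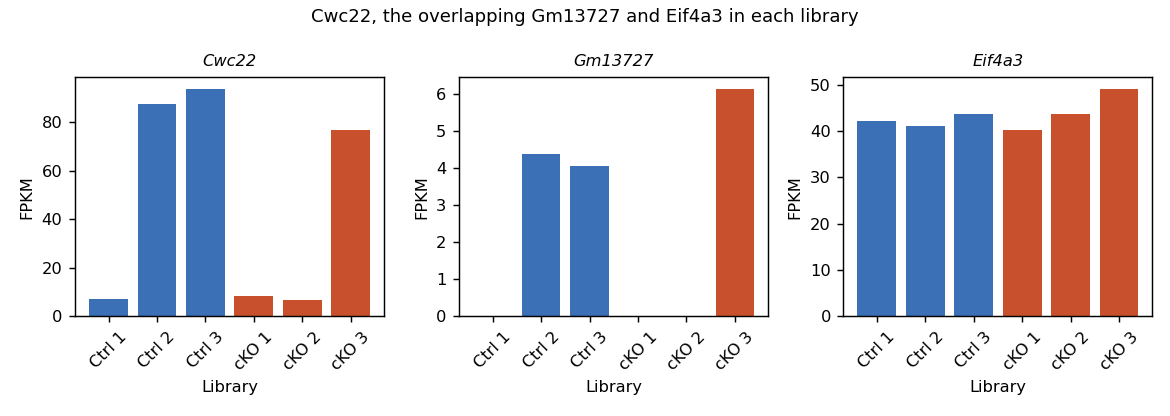
FPKM of *Cwc22*, the overlapping *Gm13727* and *Eif4a3* in each library (Ctrl 1 to 3, cKO 1 to 3). Ctrl 1, cKO 1 and cKO 2 are low for *Cwc22* and at 0 for *Gm13727*, while *Eif4a3* stays between 40.3 and 49.2 FPKM.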

How the data were processed

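RNA-seq libraries of 16.5 dpc ovaries (3 Ctrl, 3 cKO) were compared by their labels. The authors aligned reads to mm10 (GRCm38) with HISAT2 2.0.5 (submitters' processing notes), used featureCounts to assign reads to genes, and scaled them to the deposited FPKM. Neither strand setting nor annotation release is given in the sources used here. FPKM times gene length returned whole reads for every value within 0.05 of a read, and 14212164 to 16784241 reads per library set the precision. The deposited FPKM were tested as log2(FPKM + 1) over the 17180 genes with a mean of at least 0.5 FPKM, by limma 3.58.1 in R 4.3.3 with an intensity trend, two-sided. The limit was the study's, an unadjusted p below 0.05, with Benjamini-Hochberg adjustment beside it. The deposited values are FPKM, and the count test of the study was not rerun, although whole reads were recovered. Recovered reads entered limma voom as an alternative. Fold changes of low genes are understated by the pseudocount of 1. Ratios were tested by exact permutation, two-sided. The limma fit alone was tested on simulated data. The named genes were *Srsf1*, the members, their paralogs and copies, and of each partner list the genes past the limit or with the largest and smallest fold change. *Ncbp3*, *Cwc27*, *Pym1*, *Upf3a*, *Gm13727*, *Dppa3* and *Hbb-y* were named after their values were seen. Members and lists were chosen with earlier results of these data known. Alternatives changed the pseudocount, filter, scaling, variance trend, covariate, block, gene set and libraries.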

Additional observations from a re-analysis of the deposited data

How the results depend on the processing

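With 3 libraries per group, 95% intervals of the members ran from -0.18 to 0.35 for *Casc3* and from -0.68 to 0.16 for *Pnn*, and differences within them cannot be told from 0. Without each library in turn, *Eif4a3* ranged from -0.00868 to 0.132 in log2 fold change, *Magoh* from -0.0839 to 0.0893, *Rbm8a* from -0.221 to 0.0577, *Rnps1* from -0.164 to 0.0655, *Acin1* from -0.295 to 0.0194 and *Sap18* from -0.370 to -0.0808. *Eif4a1* ranged from -0.133 to 0.0601 and *Upf3a* from -0.423 to 0.0308. The log2 difference of *Rbm8a* over *Magoh* plus *Magohb* ranged from -0.244 to 0.149 and that of *Eif4a3* over the same sum from -0.00266 to 0.146. Members counted as lower ranged from 0 to 1 (*Sap18*, without cKO 2). Partner genes counted as higher ranged from 0 to 6 and as lower from 0 to 2; without cKO 2, 6 were higher and 2 lower (*Pym1* and *Upf3a*), and 14.5% of all genes tested passed the limit, against 2.47% without cKO 3. No partner was higher without Ctrl 2, cKO 1 or cKO 3 or under quantile normalization (0), while the germ-cell covariate gave 1 lower partner (*Cwc22*). *Magoh* was at 0.00504 under median-ratio scaling and at 0.0234 with the germ-cell covariate, which also put *Acin1* at 0.0528, *Eif4a1* at 0.0447 and *Upf3a* at 0.0209; the cause was not tested. Of 153 values of the members, 142 kept their direction and their side of the limit, 10 changed direction and 1 passed the limit. Deviations of same-numbered libraries from their group means had correlations of -0.389, -0.0297 and 0.117. These showed no clear pairing by number, but with 3 libraries per group they cannot settle whether libraries were paired. The replicate block leaves the fold changes as they are in this balanced design (*Pnn* -0.26). With it no member passed and 681 genes did, against 761 without it. *Pnn* was at -0.0682 without cKO 3 and at -0.14 with the germ-cell covariate.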
